A study of Mus musculus with 20 samples.

Results

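The 44 genes described here belong to 3 linked programmes that cells use against stress on protein synthesis and folding. There were 16 genes of the integrated stress response, 13 of the unfolded protein response of the endoplasmic reticulum (ER) and 15 of the heat shock response. They were chosen by name, with earlier results of these data known. All 44 were found among the 43629 genes of the deposited count table. All 44 also passed the filter on low counts in each comparison. RNA was sequenced from spinal cord nuclei of mice, which had been separated by flow cytometry into NeuN-positive nuclei, labelled neuronal, and NeuN-negative nuclei, labelled non-neuronal. The mice either had experimental autoimmune encephalomyelitis (EAE), an immune attack on the central nervous system that serves as a model of multiple sclerosis, and were taken at day 15 after active immunization, or were healthy. This gave 4 groups of 5 libraries each: EAE NeuN-positive, healthy NeuN-positive, EAE NeuN-negative and healthy NeuN-negative. Strain, sex, age and clinical score of the mice, and what the healthy mice received, were not stated in the labels. Nothing in the labels says that the 5 libraries of a group came from separate mice, so p-values measure the spread between these libraries only. RNA of nuclei holds little of the cytoplasm, so the values are levels of nuclear transcripts and not of proteins.

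In the integrated stress response, kinases that sense different stresses phosphorylate the translation factor eIF2alpha, which lowers protein synthesis as a whole while the mRNA of the transcription factor ATF4 is translated more; ATF4 then drives genes of amino acid supply. In the unfolded protein response, the sensors PERK, IRE1 and ATF6 in the ER membrane report unfolded protein and raise ER chaperones and the machinery that removes faulty protein. The heat shock response is driven by HSF1, which induces chaperones of the cytosol, nucleus and mitochondria. Much of this signalling runs through phosphorylation, splicing and translation, which gene counts do not show.

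The DNA letters through which these programmes are known to reach their genes were searched in promoters of RefSeq (GRCm38.p6, 250 bases before to 50 after each start site, 32851 promoters), which held 38 of the 44 genes. The 6 without an entry were Ppp1r15b, Atf6, Hsf1, Hspa8, Hsp90aa1 and Hsp90ab1. Each motif was searched on both strands, and capitals below mark its fixed letters. The core of the amino acid response element bound by ATF4, TGATGNAAN, was present in 3.95% of all promoters searched and in those of 4 members. Asns and Trib3 are shown because their transcripts were called in an EAE comparison. Chac1 and Herpud1 complete the set and were added after their values were seen. The match of Trib3 lies after the start site and those of the other genes before it.
Asns, chr6:7693210-7693252, minus strand: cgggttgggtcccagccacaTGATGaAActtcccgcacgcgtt
Trib3, chr2:152344029-152344057, minus strand: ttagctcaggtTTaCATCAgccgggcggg
Chac1, chr2:119351028-119351076, plus strand: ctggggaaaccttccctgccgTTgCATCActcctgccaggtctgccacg
Herpud1, chr8:94386296-94386344, plus strand: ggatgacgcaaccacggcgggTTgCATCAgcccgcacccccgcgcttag

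The ER stress response element, CCAAT and CCACG with 9 bases between them, was far rarer, at 0.119% of promoters, and 5 members of the unfolded protein response held it. They were Hspa5, Pdia6, Dnajc3 and Syvn1, printed here to show the shared spacing between both arms of the motif, and Hsp90b1, which held it at 2 places that do not overlap. This set, too, was chosen after values were seen.
Hspa5, chr2:34772005-34772063, plus strand: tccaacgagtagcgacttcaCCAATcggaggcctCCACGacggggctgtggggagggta
Pdia6, chr12:17266471-17266529, plus strand: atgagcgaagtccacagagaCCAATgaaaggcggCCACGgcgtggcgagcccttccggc
Dnajc3, chr14:118937807-118937865, plus strand: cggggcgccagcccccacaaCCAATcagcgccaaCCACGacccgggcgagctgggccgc
Syvn1, chr19:6046512-6046570, plus strand: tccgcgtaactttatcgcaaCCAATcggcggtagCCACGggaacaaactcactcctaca

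The heat shock element was searched as 3 blocks of GAA and TTC in turn, each 2 bases apart, on both strands. It was present in 0.597% of promoters and in those of Hsph1, Hspd1 and Hspe1. Hsph1 was called in an EAE comparison, and its match lies after the start site. Hspd1 and Hspe1, the paired mitochondrial chaperonin genes, lie back to back and share a single site of overlapping matches between them, printed once on the strand of Hspe1 and chosen after values were seen. A match says only that these letters are present.
Hsph1, chr5:149636280-149636308, minus strand: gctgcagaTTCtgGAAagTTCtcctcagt
Hspe1, chr1:55088038-55088097, plus strand: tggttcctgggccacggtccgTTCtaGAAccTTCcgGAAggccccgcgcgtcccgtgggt

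Library depth differed between groups. Total counts ran from 7072200 to 18686997 in EAE NeuN-positive libraries and from 12076860 to 30499828 in healthy NeuN-positive ones, and from 3149209 to 15525441 in EAE NeuN-negative libraries and from 8336330 to 37689267 in healthy NeuN-negative ones. Mitochondrially encoded transcripts, a sign of cytoplasm in a preparation of nuclei, took 1.08 to 9.35% of counts in EAE NeuN-positive libraries and 0.197 to 3.0% in healthy ones. In NeuN-negative libraries they took 2.18 to 14.6% in EAE and 0.367 to 4.51% in healthy mice. The highest shares of their groups, in both sorts, were those of EAE libraries 2 and 4 and of healthy library 3, and for EAE against healthy each call that changes without these 3 numbers is given beside its result. These numbers also had the lowest total counts of their groups in both sorts, so depth and mitochondrial share cannot be told apart for them. The sort enriched neurons, but not to the same degree in every library: 10 neuron marker genes summed to 17000 to 27500 CPM in EAE and 19000 to 25800 CPM in healthy NeuN-positive libraries, against 823 to 2610 CPM in EAE and 1240 to 3720 CPM in healthy NeuN-negative ones. CPM are counts scaled to a common library size, with TMM factors between libraries. The 7 oligodendrocyte markers, which neurons should lack, summed to 7430, 56300, 9240, 29800 and 8040 CPM in EAE NeuN-positive libraries 1 to 5 and to 3110, 3130, 32700, 9230 and 4070 CPM in healthy ones, against 22500 to 54100 CPM in EAE and 33000 to 51100 CPM in healthy NeuN-negative libraries. NeuN-positive libraries EAE 2, EAE 4 and healthy 3 were thus at or near the level of the non-neuronal sort, and these are the same 3 numbers.

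In NeuN-positive nuclei 5 of the 44 genes were higher in EAE and 3 lower, where 10.2% of the 16675 genes tested were called in either direction (6.55% higher and 3.68% lower). Those that rose were the integrated stress genes Atf4, Atf5 and Ppp1r15a and the small heat shock genes Hspb1 and Hspb8, and those that fell were Asns, Hsf1 and Dnajb1. In NeuN-negative nuclei 4 genes rose (Atf5, Trib3, Hspb1 and Hspb8) and 5 fell (Psat1, Phgdh, Hsf1, Hsph1 and Dnajb1), where 27.7% of 17604 genes were called (15.1% higher and 12.6% lower). The share of members called was thus above the background of all genes in NeuN-positive nuclei, at 8 of 44. It was below the background in NeuN-negative nuclei, at 9 of 44, and neither gap was tested. Since members were chosen with earlier results of these data known, these shares are no result about the 3 programmes. No gene of the unfolded protein response was called in either sort. Less RNA per nucleus and fewer nuclei of a cell type cannot be told apart in such bulk samples.

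**Figure D1:**
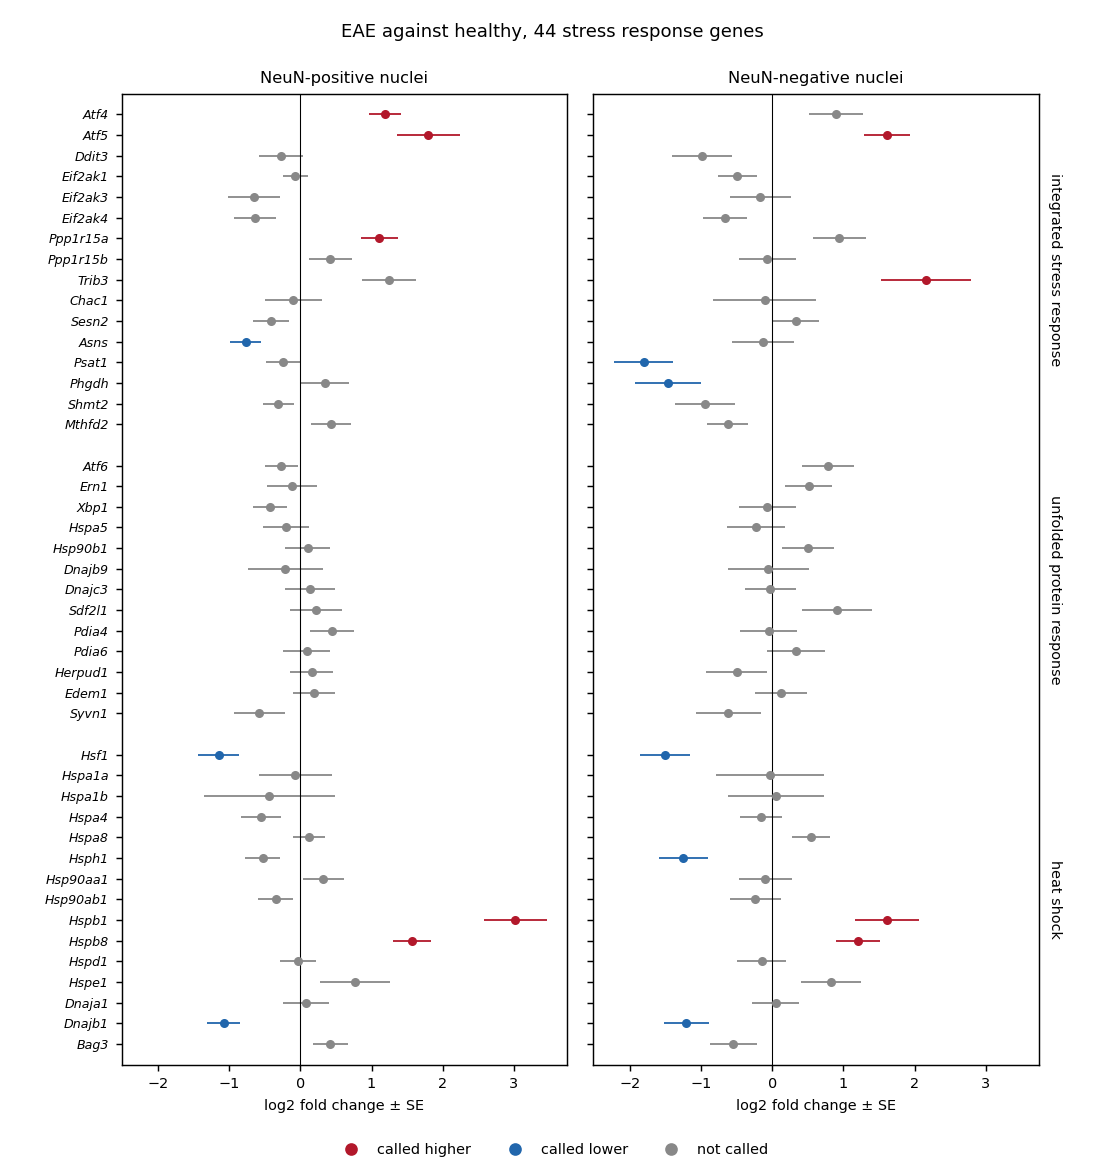
Log2 fold change of EAE against healthy for the 44 genes (points, with bars for 1 standard error), NeuN-positive nuclei at left and NeuN-negative nuclei at right on the same scale, ordered by branch. Red points were called higher and blue points lower at an adjusted p under 0.05. The largest value is that of Hspb1 in NeuN-positive nuclei (3.02), and all 13 unfolded protein response genes are grey in both panels.

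Atf4 and Atf5 encode transcription factors of the integrated stress response. Both were called higher in EAE in NeuN-positive nuclei, but only Atf5 was in NeuN-negative nuclei. Atf4, whose mRNA is the best known target of translational control in this response, was at 340, 339, 195, 282 and 395 CPM in EAE NeuN-positive libraries 1 to 5, against 162, 160, 128, 148 and 154 CPM in the healthy ones. The groups did not overlap, and the log2 fold change was 1.19 ± 0.23 (standard error; edgeR, adjusted p = 0.00554). Per kilobase of exon Atf4 had the highest mean level of the 44 genes in EAE NeuN-positive libraries, at 132 CPM per kb, whereas in healthy ones Hsp90ab1 (90.3 CPM per kb) stood above it (63.7 CPM per kb). In NeuN-negative nuclei Atf4 was at 421, 102, 227, 112 and 388 CPM in EAE, against 174, 192, 90.1, 171 and 186 CPM in healthy libraries. EAE libraries 1, 3 and 5 lay above all healthy ones, and libraries 2 and 4 lay among them, so that the log2 fold change of 0.90 ± 0.38 was not called (adjusted p = 0.0887). It was called without EAE library 2 (1.06 ± 0.35, adjusted p = 0.0421) and without libraries EAE 2, EAE 4 and healthy 3 (1.22 ± 0.28, adjusted p = 0.00577).

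Atf5, which is induced by the same translational switch and guards mitochondrial protein folding, was at 40.7, 135, 46.9, 106 and 37.9 CPM in EAE NeuN-positive libraries and at 20.9, 19.2, 35.6, 27.2 and 14.2 CPM in healthy ones. EAE libraries 2 and 4, those with the most mitochondrial counts, held the highest values, and the groups did not overlap (log2 fold change 1.80 ± 0.44, adjusted p = 0.021). Leaving out EAE library 2 or 4 or healthy library 1 or 2 ended the call, at adjusted p of 0.0535 to 0.0594, while the fit without libraries EAE 2, EAE 4 and healthy 3 kept it at 1.16 ± 0.24 (adjusted p = 0.0163). The same gene was at 104, 121, 64.9, 107 and 87 CPM in EAE NeuN-negative libraries, against 45.7, 44.3, 39.1, 44.8 and 35.0 CPM in healthy ones. Every EAE library lay above every healthy one there, at a log2 fold change of 1.61 ± 0.32 (adjusted p = 0.00187). Exons of Atf5 share 82 bases with the gene Il4i1 on the opposite strand, and the labels do not state whether the counting used strand.

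Ddit3 encodes CHOP, the factor downstream of ATF4 that is linked to cell death when ER stress lasts. It was called in neither sort. Its CPM were 34.9, 47.6, 46.9, 43.6 and 21.4 in EAE NeuN-positive libraries and 54.4, 46.4, 69.4, 53.8 and 27.5 in healthy ones (log2 fold change -0.27 ± 0.31, adjusted p = 0.591). In NeuN-negative nuclei they were 49.0, 11.1, 76.7, 16.6 and 28.0 in EAE, against 86.8, 74.8, 105, 104 and 34.9 in healthy libraries. That log2 fold change of -0.99 ± 0.42 was not called (adjusted p = 0.0903). It was called without EAE library 3 (-1.41 ± 0.42, adjusted p = 0.0179) and without healthy library 5 (-1.25 ± 0.41, adjusted p = 0.0377). Of the 18 alternatives run, 5 called it lower. Without the 3 library numbers of highest mitochondrial share it was -0.33 ± 0.39 and not called (adjusted p = 0.555). That was the smallest fall among these alternatives. Ddit3 shares 68 exonic bases with the methionyl-tRNA synthetase gene Mars1 on the opposite strand, whose counts were also lower in EAE in both sorts.

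The 3 kinases of eIF2alpha among the members were called in neither sort. Eif2ak3, which encodes PERK, the kinase of the ER membrane, was at 14.5, 8.95, 19.4, 10.4 and 12.4 CPM in EAE NeuN-positive libraries and at 25.2, 26.6, 8.31, 10.6 and 42.1 CPM in healthy ones, a log2 fold change of -0.65 ± 0.37 (adjusted p = 0.261). It was at 12.9, 17.6, 24.8, 5.02 and 8.12 CPM in EAE NeuN-negative libraries and at 22.3, 24.3, 8.24, 9.44 and 34.6 CPM in healthy ones (-0.17 ± 0.43, adjusted p = 0.797). The healthy libraries alone spread over 8.31 to 42.1 CPM in NeuN-positive and 8.24 to 34.6 CPM in NeuN-negative nuclei. Both spreads were wider than the gap between the group means. Eif2ak1, the haem-regulated kinase, had log2 fold changes of -0.07 ± 0.17 and -0.49 ± 0.28 in NeuN-positive and NeuN-negative nuclei, and Eif2ak4, the amino acid sensor GCN2, of -0.64 ± 0.29 and -0.67 ± 0.31, with adjusted p of 0.116 to 0.831. The remaining kinase of eIF2alpha, the double-stranded RNA sensor and interferon target Eif2ak2 (PKR), is no member but was read beside them. It averaged 55.6 ± 24.5 CPM in EAE NeuN-positive and 8.43 ± 3.10 CPM in healthy NeuN-positive libraries (SD, n = 5 each), at a log2 fold change of 2.81 ± 0.40 (adjusted p = 0.000466). In NeuN-negative nuclei it averaged 110 ± 72.6 CPM in EAE and 16.2 ± 7.79 CPM in healthy libraries (SD, n = 5 each), at 2.98 ± 0.48 (adjusted p = 0.000383).

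Ppp1r15a, the stress-induced GADD34 that directs a phosphatase back onto eIF2alpha, was at 46.4, 46.1, 26.5, 54.9 and 40.1 CPM in EAE NeuN-positive libraries and at 23.8, 26.1, 18.6, 22.1 and 18.6 CPM in healthy ones. The lowest EAE library was just above the highest healthy one, and the log2 fold change was 1.11 ± 0.26 (adjusted p = 0.0155). Without libraries EAE 2, EAE 4 and healthy 3 it was 0.88 ± 0.25 and no longer called (adjusted p = 0.0579). An edgeR fit on all 20 libraries did not call it either (adjusted p = 0.0604). EAE NeuN-negative libraries had 37.7, 4.87, 31.5, 18.2 and 29.4 CPM and healthy ones 16.8, 17.7, 10.4, 16.9 and 14.7 CPM. All EAE libraries but library 2, which was below every healthy one, were above the healthy range (0.94 ± 0.37, adjusted p = 0.0672), and without the same 3 numbers the gene was called at 1.26 ± 0.25 (adjusted p = 0.00279). Its constitutive counterpart Ppp1r15b was called in neither sort (0.42 ± 0.30 in NeuN-positive and -0.07 ± 0.40 in NeuN-negative nuclei).

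Of the 8 targets and enzymes of the branch, 1 was called lower in NeuN-positive nuclei, and 1 higher and 2 lower in NeuN-negative nuclei. Of all genes tested, 3.68% were called lower in NeuN-positive nuclei, and 15.1% higher and 12.6% lower in NeuN-negative nuclei. Trib3, a pseudokinase induced by ATF4, was at 9.47, 9.99, 6.03, 17.0 and 11.6 CPM in EAE NeuN-positive libraries against 4.98, 3.83, 5.44, 7.37 and 3.28 CPM in healthy ones. EAE library 3 alone lay within the healthy range, and the log2 fold change of 1.25 ± 0.38 fell just short of a call (adjusted p = 0.0507). In NeuN-negative nuclei Trib3 was at 9.60, 1.90, 5.02, 4.84 and 3.94 CPM in EAE against 1.40, 1.09, 1.82, 0.674 and 1.84 CPM in healthy libraries. The lowest EAE library was just above the highest healthy one, and the log2 fold change was 2.16 ± 0.63 (adjusted p = 0.0187). These are low counts, 301 reads over the 5 EAE and 144 over the 5 healthy NeuN-negative libraries, and the call was lost without EAE library 1 or healthy library 1, 2 or 4 (adjusted p of 0.0597 to 0.0723). It was also lost with no filter on low counts. With the library number as a replicate block it was lost too (2.12 ± 0.80, edgeR, adjusted p = 0.0676). Chac1, another ATF4 target, which degrades glutathione, and Sesn2, an inhibitor of mTORC1 signalling, were called in neither sort, with log2 fold changes of -0.10 ± 0.40 and -0.41 ± 0.25 in NeuN-positive and -0.11 ± 0.72 and 0.33 ± 0.32 in NeuN-negative nuclei.

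Asns, asparagine synthetase, whose promoter holds the ATF4 element printed above, was lower in EAE where Atf4 was higher. It was at 37.1, 34.2, 59.3, 40.2 and 30.9 CPM in EAE NeuN-positive libraries and at 66.8, 68.9, 71.5, 97.2 and 60.9 CPM in healthy ones. The highest EAE library was just below the lowest healthy one, with a log2 difference of -0.77 ± 0.22 (edgeR, adjusted p = 0.0427). The call was a narrow one: leaving out EAE library 1, 2, 4 or 5 or healthy library 1, 2 or 4 ended it (adjusted p of 0.0652 to 0.111), with the log2 fold change between -0.82 and -0.65, and without libraries EAE 2, EAE 4 and healthy 3 it was -0.69 ± 0.25 (adjusted p = 0.105). The replicate block (-0.76 ± 0.22, edgeR, adjusted p = 0.068) and a fit on all 20 libraries lost it too, so 10 of the 18 alternatives did not call Asns. In NeuN-negative nuclei, where the gene was low, it was at 9.53, 9.21, 15.3, 2.94 and 9.30 CPM in EAE and at 5.50, 7.44, 11.4, 16.1 and 22.9 CPM in healthy libraries (-0.13 ± 0.44, adjusted p = 0.845).

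Psat1 and Phgdh catalyse consecutive steps of serine synthesis, a pathway at home in astrocytes, and both fell in EAE NeuN-negative nuclei. Psat1 was at 93.8, 23.3, 179, 38 and 68.4 CPM in EAE NeuN-negative libraries, against 404, 417, 189, 289 and 366 CPM in healthy ones, a log2 fold change of -1.81 ± 0.42 (adjusted p = 0.00509). Phgdh was at 15.9, 1.35, 37.2, 14.4 and 15.1 CPM in EAE, against 68.2, 72.9, 51.8, 43.6 and 39.8 CPM in healthy libraries (-1.47 ± 0.46, adjusted p = 0.0276). The groups did not overlap for either gene. The call of Phgdh was lost without EAE library 1, 4 or 5 or healthy library 1 or 2 (adjusted p of 0.0532 to 0.0714), and that of Psat1 held without each library in turn. In NeuN-positive nuclei Psat1 was at 30.2, 17.6, 35.3, 20 and 17.6 CPM in EAE and at 26.4, 25.0, 30.4, 37.6 and 31.5 CPM in healthy libraries (-0.24 ± 0.24, adjusted p = 0.539). There Phgdh was at 8.80, 10.4, 7.11, 3.82 and 7.43 CPM in EAE and at 6.21, 6.11, 6.93, 8.21 and 4.94 CPM in healthy libraries (0.34 ± 0.35, adjusted p = 0.543), and both genes overlapped between the groups. The folate enzymes of mitochondria Shmt2 and Mthfd2 had log2 fold changes of -0.95 ± 0.42 and -0.63 ± 0.29 in NeuN-negative nuclei, uncalled at adjusted p of 0.103 and 0.113. Markers of astrocytes were lower beside these enzymes: the 6 of them summed to 627 to 2230 CPM, with a median of 882 CPM, in EAE NeuN-negative libraries and to 1370 to 2540 CPM, with a median of 1910 CPM, in healthy ones. All 6 had negative log2 fold changes, from -2.68 to -0.19, of which that of Fgfr3 was called. No astrocyte marker was at 0 in all libraries of a group, and the part of astrocyte nuclei in the fall of Psat1 and Phgdh was not tested.

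**Figure D2:**
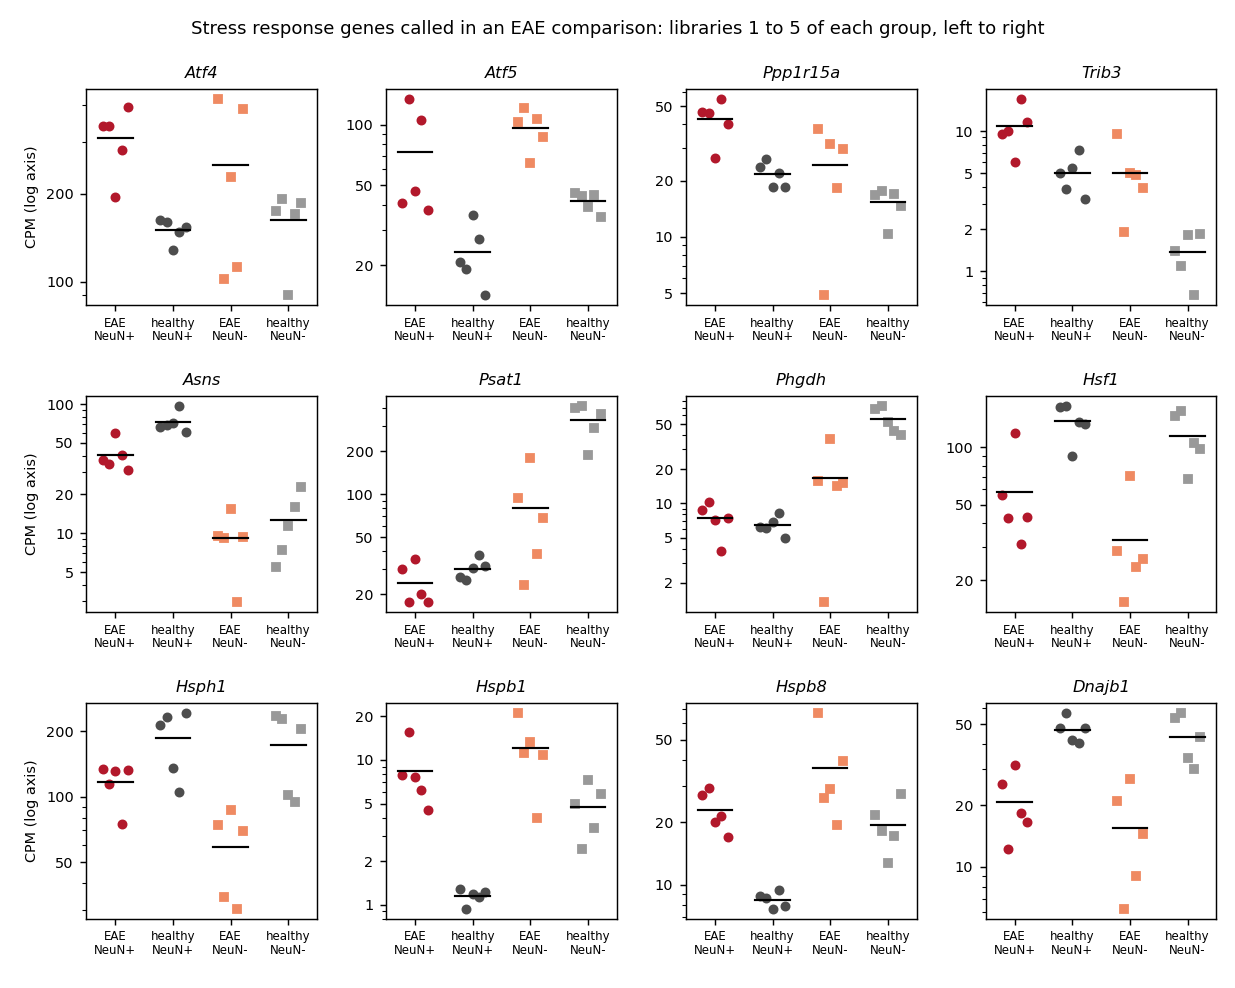
CPM on a log axis for the 12 genes called in at least 1 EAE comparison, with libraries 1 to 5 of each group from left to right as points and the group mean as a line. Hspb1 lies at 4.54 to 15.7 CPM in EAE and 0.931 to 1.28 CPM in healthy NeuN-positive libraries, whereas the mean lines of Hsf1 and Dnajb1 lie lower in EAE in both sorts.

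The unfolded protein response showed no called change in either sort. In NeuN-positive nuclei the 13 genes had log2 fold changes of -0.58 to 0.44 with standard errors of 0.23 to 0.53, a median of 0.09 against -0.03 over all genes tested, and a lowest adjusted p of 0.26. In NeuN-negative nuclei they ran from -0.62 to 0.91 with standard errors of 0.33 to 0.57, a median of -0.03 against 0.05 over all genes, and a lowest adjusted p of 0.125. By edgeR, 0 of the 13 genes were at an unadjusted p under 0.05 in either sort, against 4814 of all 16675 genes in NeuN-positive and 7255 of all 17604 in NeuN-negative nuclei. The DESeq2 Wald test called 0 in both. limma voom with library quality weights, which called 46.2% of all genes in NeuN-positive and 51.5% in NeuN-negative nuclei, called Xbp1, Hspa5 and Syvn1 lower in NeuN-positive and Syvn1 lower in NeuN-negative nuclei. A p that misses the threshold does not show that these genes were alike in EAE and healthy nuclei.

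Among the sensors, Atf6, the membrane-bound transcription factor, was at 20.3, 18.5, 20.1, 21.7 and 21.8 CPM in EAE NeuN-positive libraries and at 21.6, 27.3, 25.9, 20.2 and 39.4 CPM in healthy ones (log2 fold change -0.27 ± 0.23, adjusted p = 0.474). It was at 33.6, 60.9, 26.6, 20.1 and 27.8 CPM in EAE NeuN-negative and at 23.1, 28.6, 15.9, 19.6 and 47.0 CPM in healthy NeuN-negative libraries (0.78 ± 0.37, adjusted p = 0.125). EAE library 2 held the highest value. Ern1, which encodes IRE1, the kinase and RNase that splices Xbp1 mRNA, was at 18.6, 10.1, 11.9, 14.2 and 14.5 CPM in EAE NeuN-positive libraries and at 17.2, 17.1, 6.83, 9.83 and 32.4 CPM in healthy ones (-0.12 ± 0.35, adjusted p = 0.851). In NeuN-negative nuclei it was at 23.1, 14.4, 15.7, 11.8 and 20.7 CPM in EAE and at 16.4, 18.7, 8.60, 8.54 and 24.9 CPM in healthy libraries (0.51 ± 0.33, adjusted p = 0.247). Both groups overlapped in both sorts for Ern1.

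Xbp1, the factor that IRE1 activates by splicing, was at 34.2, 32.7, 60.7, 36.1 and 36.1 CPM in EAE NeuN-positive libraries and at 72.8, 63.3, 33.4, 41.7 and 81.5 CPM in healthy ones (-0.43 ± 0.24, adjusted p = 0.26). In NeuN-negative nuclei it was at 84.1, 15.4, 102, 22 and 44.4 CPM in EAE and at 80.0, 73.6, 25.9, 58.3 and 96.6 CPM in healthy libraries (-0.07 ± 0.40, adjusted p = 0.912). The count table does not separate spliced from unspliced Xbp1. Hspa5, which encodes BiP, the main chaperone of the ER and the classic target of all branches of this response, was at 58.6, 86.5, 93.0, 39.6 and 59.0 CPM in EAE NeuN-positive libraries and at 110, 99.7, 35.1, 57.7 and 128 CPM in healthy ones (-0.20 ± 0.32, adjusted p = 0.709). It was at 150, 31.4, 176, 44.1 and 78.6 CPM in EAE NeuN-negative libraries and at 190, 168, 57.5, 70.7 and 187 CPM in healthy ones (-0.23 ± 0.41, adjusted p = 0.706). In each group the spread over libraries was larger than the gap between the means.

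The other 6 chaperones and folding enzymes (Hsp90b1, Dnajb9, Dnajc3, Sdf2l1, Pdia4 and Pdia6) had log2 fold changes of -0.21 to 0.44 in NeuN-positive and -0.06 to 0.91 in NeuN-negative nuclei, the highest being that of Pdia4 in the first and of Sdf2l1 in the second. The 3 genes of ER-associated degradation, which returns faulty proteins to the cytosol, were Herpud1 (0.16 ± 0.30 and -0.50 ± 0.43 in NeuN-positive and NeuN-negative nuclei), Edem1 (0.19 ± 0.29 and 0.12 ± 0.37) and Syvn1, its ubiquitin ligase (-0.58 ± 0.36 and -0.62 ± 0.46).

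What the 13 ER genes did share was much of their order over the healthy libraries. Healthy library 3 held the lowest value of its group for 12 of the 13 genes in both sorts, and healthy library 5 the highest for 12 in NeuN-positive and 9 in NeuN-negative nuclei. Summed over the branch, EAE libraries 1 to 5 held 553, 523, 681, 344 and 623 CPM in NeuN-positive nuclei and 995, 334, 1010, 302 and 713 CPM in NeuN-negative nuclei. EAE library 4 was lowest in both sorts. Healthy libraries 1 to 5 held 770, 752, 313, 458 and 950 CPM in NeuN-positive nuclei and 1000, 954, 309, 544 and 1170 CPM in NeuN-negative nuclei. The lowest summed levels thus stood beside high mitochondrial shares, which were 5.30 and 9.83% in EAE library 4 and 3.0 and 4.51% in healthy library 3 (NeuN-positive and NeuN-negative nuclei), whereas EAE library 2, at 9.35 and 14.6%, was low only in NeuN-negative nuclei. Total counts were low there too, at 8187482 and 4104125 in EAE library 4 and 12076860 and 8336330 in healthy library 3. EAE library 2 had 7072200 and 3149209. Dnajb9, an ER co-chaperone, was at 26.0 and 36.8 CPM in healthy library 5 of the NeuN-positive and NeuN-negative sort, with 2.57 to 9.69 and 3.51 to 8.34 CPM in the other 4 healthy libraries. The pattern over libraries was not particular to ER genes, and the heat shock genes shared it. Summed heat shock genes were also lowest in healthy library 3 (624 CPM in NeuN-positive and 563 CPM in NeuN-negative nuclei). They were highest in healthy library 5 (1170 and 1370 CPM), and EAE library 4 was their lowest EAE library (476 and 380 CPM). Summed integrated stress genes were lowest in healthy library 3 too (648 and 687 CPM), but differed in the rest. Healthy library 5 (701 and 1100 CPM) was below healthy library 2 (742 and 1200 CPM). EAE library 4 (813 and 435 CPM) was not their lowest EAE library, which was library 3 in NeuN-positive (788 CPM) and library 2 in NeuN-negative nuclei (370 CPM). The parts of cytoplasm and of depth in this pattern, and its extent over all genes, were not tested. Without libraries EAE 2, EAE 4 and healthy 3, still 0 of the 13 genes were called in either sort.

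**Figure D3:**
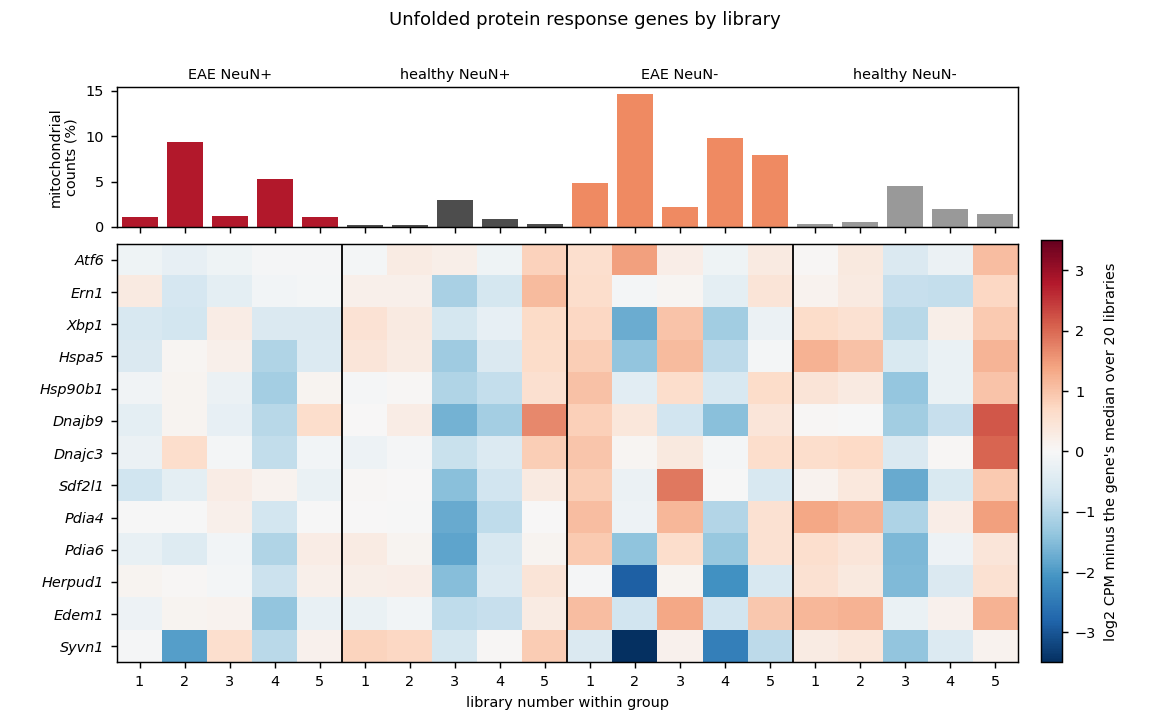
The 13 unfolded protein response genes (rows) in the 20 libraries (columns, libraries 1 to 5 of each group), as log2 CPM minus the gene's median over the 20 libraries, with the mitochondrial share of counts of each library as bars above. The columns of healthy library 3 and EAE library 4 are mostly blue and those of healthy library 5 mostly red in both sorts.

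Of the 15 heat shock genes, Hspb1 and Hspb8 rose and Hsf1 and Dnajb1 fell in both sorts, and Hsph1 fell in NeuN-negative nuclei. Hspb1, which encodes HSP27, a chaperone that holds unfolded proteins and stabilises the cytoskeleton, was at 7.91, 15.7, 7.62, 6.17 and 4.54 CPM in EAE NeuN-positive libraries, against 1.28, 0.931, 1.19, 1.12 and 1.23 CPM in healthy ones. The lowest EAE library was above the highest healthy one, and the log2 fold change of 3.02 ± 0.44 (adjusted p = 0.000655) was the largest of the 44 genes. It rests on 457 reads over the 5 EAE and 111 over the 5 healthy libraries. In NeuN-negative nuclei it was at 21.3, 11.1, 13.3, 3.98 and 10.8 CPM in EAE, against 4.95, 2.43, 7.27, 3.37 and 5.81 CPM in healthy libraries (1.61 ± 0.45, adjusted p = 0.0163). EAE library 4 lay within the healthy range, and the call was lost without EAE library 1 or healthy library 2 or 4 (adjusted p of 0.052 to 0.0594). Hspb8, which works with BAG3 in the autophagy of misfolded proteins, was at 27.1, 29.2, 20.1, 21.3 and 16.9 CPM in EAE NeuN-positive libraries, against 8.78, 8.59, 7.62, 9.41 and 7.87 CPM in healthy ones (1.57 ± 0.27, adjusted p = 0.00183). It was at 67.5, 26.0, 28.9, 19.4 and 39.6 CPM in EAE NeuN-negative libraries, against 21.7, 18.1, 12.7, 17.1 and 27.2 CPM in healthy ones (1.21 ± 0.31, adjusted p = 0.00869). The NeuN-positive groups did not overlap, and in NeuN-negative nuclei EAE libraries 2 and 4 lay within the healthy range. The NeuN-negative call of Hspb8 was lost with no filter on low counts (edgeR, adjusted p = 0.112). Its partner Bag3 was not called in EAE (0.42 ± 0.25 in NeuN-positive and -0.55 ± 0.33 in NeuN-negative nuclei).

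In healthy mice Hspb1, Hspb8 and Bag3 were lower in NeuN-positive than in NeuN-negative nuclei, by log2 fold changes of -2.12 ± 0.40, -1.22 ± 0.21 and -1.86 ± 0.21. Signs of other cells moved beside the rise of the small heat shock genes in EAE NeuN-positive nuclei. The 7 tested of 8 monocyte and macrophage markers were all called higher there, with a sum of 272 to 1400 CPM in EAE against 5.13 to 19.8 CPM in healthy libraries, as were 5 of 8 microglia markers, with 193 to 351 against 22.8 to 44.5 CPM. Of the 6 astrocyte markers 1 was called higher (394 to 942 CPM in EAE and 192 to 410 CPM in healthy libraries), of the 7 oligodendrocyte markers 1, and of the 10 neuron markers 0. Each marker had counts in at least 1 EAE NeuN-positive library, and Cxcr2 of the 6 neutrophil markers was the 1 marker at 0 in all healthy ones. The part of these cells in the rises of Atf4, Atf5, Ppp1r15a, Hspb1 and Hspb8 was not tested. For Hspb1 and Hspb8, the rise in NeuN-positive nuclei was called under each of the 18 alternatives run, with log2 fold changes of 2.56 to 3.16 and 1.40 to 1.66.

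Hsf1, the master regulator of the heat shock response, was lower in EAE. It was at 56.4, 42.5, 119, 31.0 and 42.9 CPM in EAE NeuN-positive libraries, against 162, 165, 89.5, 136 and 133 CPM in healthy ones, a log2 fold change of -1.15 ± 0.29 (adjusted p = 0.0236). EAE library 3 stood above the other EAE libraries and above healthy library 3. The call was lost without EAE library 1, 2, 4 or 5 or healthy library 1, 2 or 4 (adjusted p of 0.05 to 0.0674) and without libraries EAE 2, EAE 4 and healthy 3 (-0.94 ± 0.28, adjusted p = 0.0635). In NeuN-negative nuclei Hsf1 was at 28.4, 15.4, 70.6, 23.5 and 25.9 CPM in EAE, against 145, 154, 68.2, 105 and 97.2 CPM in healthy libraries. All EAE libraries but library 3 were below the healthy range, the log2 fold change was -1.51 ± 0.35 (adjusted p = 0.00496), and the call held in all 18 alternatives.

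Dnajb1, the HSP40 that hands substrates to HSP70 and a standard target of HSF1, was lower as well. Its levels were 25.4, 12.2, 31.5, 18.4 and 16.6 CPM in EAE NeuN-positive libraries, against 48.0, 56.9, 41.9, 40.3 and 47.6 CPM in healthy ones (-1.08 ± 0.23, adjusted p = 0.00915), and 21.1, 6.23, 26.9, 8.99 and 14.5 CPM in EAE NeuN-negative libraries, against 53.3, 56.8, 34.0, 30.1 and 43.0 CPM in healthy ones (-1.21 ± 0.32, adjusted p = 0.0114). In neither sort did the groups overlap. Hsph1, the HSP110 that recharges HSP70 with nucleotide and whose promoter holds the heat shock element printed above, was at 73.9, 34.4, 86.8, 30.4 and 69.3 CPM in EAE NeuN-negative libraries, against 235, 227, 102, 94.8 and 205 CPM in healthy ones. The groups did not overlap (-1.25 ± 0.34, adjusted p = 0.0129). In NeuN-positive nuclei it was at 134, 115, 131, 74.6 and 132 CPM in EAE and at 213, 233, 136, 105 and 244 CPM in healthy libraries (-0.53 ± 0.25, adjusted p = 0.172). The calls of Dnajb1 in both sorts and of Hsph1 in NeuN-negative nuclei held in all 18 alternatives.

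The heat-inducible HSP70 genes Hspa1a and Hspa1b, the textbook readout of HSF1, were low and were called in neither sort. Hspa1a was at 2.0, 1.79, 1.14, 3.67 and 1.12 CPM in EAE NeuN-positive libraries and at 2.73, 2.66, 1.78, 2.39 and 1.5 CPM in healthy ones (-0.07 ± 0.51, adjusted p = 0.941). It was at 2.68, 0.542, 2.88, 4.32 and 1.66 CPM in EAE NeuN-negative libraries and at 7.04, 4.05, 1.45, 0.449 and 2.89 CPM in healthy ones (-0.03 ± 0.76, adjusted p = 0.979). Hspa1b was at 1.11, 0, 0.114, 1.03 and 0.395 CPM in EAE NeuN-positive and at 1.28, 1.03, 0, 0.351 and 1.2 CPM in healthy NeuN-positive libraries (-0.44 ± 0.92, adjusted p = 0.78). These genes are near-identical copies whose reads the authors' counting may have split or dropped, so both are uncertain, and with 30 to 364 reads per gene over the 5 libraries of a group only large changes were detectable. In NeuN-negative nuclei Hspa1b was at 3.20, 2.17, 1.61, 1.73 and 0.946 CPM in EAE and at 2.45, 2.55, 1.45, 1.35 and 4.22 CPM in healthy libraries (0.05 ± 0.68, adjusted p = 0.964).

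The other 7 heat shock members were called in neither sort. The constitutive HSP70 Hspa8 had log2 fold changes of 0.12 ± 0.22 and 0.54 ± 0.27 in NeuN-positive and NeuN-negative nuclei; without libraries EAE 2, EAE 4 and healthy 3 the second was called (0.71 ± 0.24, adjusted p = 0.0397). Hspa4, of the HSP110 family, had -0.55 ± 0.28 and -0.16 ± 0.30. The cytosolic HSP90 genes, whose proteins mature kinases and receptors, had 0.32 ± 0.29 and -0.10 ± 0.37 (Hsp90aa1) and -0.35 ± 0.24 and -0.24 ± 0.36 (Hsp90ab1). The mitochondrial chaperonins Hspd1 and Hspe1 had -0.03 ± 0.25 and -0.15 ± 0.34, and 0.77 ± 0.49 and 0.82 ± 0.42. These chaperonin genes share 112 exonic bases on opposite strands. Dnaja1, an HSP40, had 0.08 ± 0.32 and 0.05 ± 0.33.

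Whether EAE acted differently in the 2 sorts was tested as the difference of the EAE effect, NeuN-positive minus NeuN-negative, where 2.56% of 20444 genes were called (1.74% higher). By edgeR with no term for library number, 0 of the 44 members were called, 5 were at an unadjusted p under 0.05, as were 3724 of all 20444 genes, and the differences ran from -0.82 to 1.92 on the log2 scale. The lowest adjusted p were those of Psat1 (1.70 ± 0.51, adjusted p = 0.0644) and Phgdh (1.92 ± 0.61, adjusted p = 0.083), the enzymes that fell in NeuN-negative nuclei. The DESeq2 Wald test called these 2 genes. With the library number as a replicate block, since numbers were taken to pair the sorts, 12.2% of all genes were called, and of the members Psat1 (1.88 ± 0.39, adjusted p = 0.00588), Phgdh (2.06 ± 0.65, adjusted p = 0.0471), Mthfd2 (1.14 ± 0.35, adjusted p = 0.0402), Hsph1 (0.87 ± 0.27, adjusted p = 0.0454) and Bag3 (1.25 ± 0.36, adjusted p = 0.0326) were called. In this test and in the comparison of the sorts in EAE, scaling by DESeq2 size factors shifted the median log2 value over all genes (-0.107 in place of 0.145 for the test of the difference, and -0.266 in place of -0.164 for the sorts in EAE). The rise of Atf4 or Atf5 was not shown to differ between the sorts (0.41 ± 0.48 and 0.37 ± 0.51), nor was that of Hspb1 (1.5 ± 0.62, adjusted p = 0.187).

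The members with the largest differences between the sorts in healthy mice were Psat1, Phgdh and Asns. In healthy mice 5 members were higher in NeuN-positive than in NeuN-negative nuclei and 10 lower, where 45.8% of 17134 genes were called (22.8% higher and 23.0% lower). Asns was at 66.8, 68.9, 71.5, 97.2 and 60.9 CPM in healthy NeuN-positive libraries, against 5.50, 7.44, 11.4, 16.1 and 22.9 CPM in healthy NeuN-negative ones, a log2 fold change of 2.49 ± 0.36 (adjusted p = 0.000129). Psat1 and Phgdh ran the other way, at -3.48 ± 0.22 (adjusted p = 3.68e-07) and -3.14 ± 0.26 (adjusted p = 1.72e-06), with no overlap between the sorts. The other genes higher in NeuN-positive nuclei were Eif2ak1, Trib3, Sesn2 and Shmt2, with log2 fold changes of 0.56 to 1.81. The remaining 8 that were lower were Atf5, Ppp1r15b, Mthfd2, Pdia4, Edem1, Hspb1, Hspb8 and Bag3, with log2 fold changes of -2.12 to -0.87. The calls of Atf5 (without NeuN-positive library 1 or 2), Shmt2 (without NeuN-positive library 4) and Pdia4 (without NeuN-negative library 1, 2 or 5 or NeuN-positive library 4) were lost, at adjusted p of up to 0.0609, 0.0518 and 0.0677. The edgeR fit on all 20 libraries also lost Atf5, Shmt2 (adjusted p = 0.323) and Eif2ak1 (adjusted p = 0.1). Markers of astrocytes were also lower in healthy NeuN-positive nuclei for 6 of 6 genes, at -3.32 to -2.46, and the part of astrocytes was not tested. With the replicate block 10 of the 44 members were higher and 17 lower, where 65.6% of all genes were called (33.2% higher and 32.5% lower). The share of members was below that of all genes for higher calls and for both directions together, and above it for lower calls. These gaps were not tested. Among the lower ones were 6 of the 13 unfolded protein response genes (Hspa5, Hsp90b1, Dnajc3, Pdia4, Pdia6 and Edem1, at -1.21 to -0.35), with Syvn1 higher at 0.53 ± 0.10. Without libraries EAE 2, EAE 4 and healthy 3, where 52.1% of all genes were called, Chac1 (1.23 ± 0.35, adjusted p = 0.0127) and Hspa1b (-1.47 ± 0.44, adjusted p = 0.0172) were called in addition.

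In EAE mice 3 members were higher in NeuN-positive than in NeuN-negative nuclei (Eif2ak1, Asns and Shmt2) and 3 lower (Psat1, Atf6 and Edem1), where 30.3% of 17982 genes were called (15.5% higher and 14.8% lower). Asns was at 1.91 ± 0.36 (adjusted p = 0.0009) and Psat1 at -1.87 ± 0.40 (adjusted p = 0.00237), and both held in all 18 alternatives. Those of Shmt2, Atf6 and Edem1 were lost in 8, 11 and 9 of the 18, mostly on leaving out a single library of either sort. With the replicate block, where 37.8% of all genes were called, 5 members were higher and 5 lower. Atf6 was then not called (-0.85 ± 0.31, adjusted p = 0.0512), while Syvn1 (0.76 ± 0.22) and Hsph1 (0.83 ± 0.22) were called higher and Atf5 (-0.82 ± 0.25), Hsp90b1 (-0.78 ± 0.24) and Hspb8 (-0.81 ± 0.27) lower, at adjusted p of 0.0116 to 0.0351. The fit without libraries EAE 2, EAE 4 and healthy 3 gave 6 higher and 16 lower, where 41.7% of all genes were called (20.9% higher and 20.8% lower), and the lower ones held 7 genes of the unfolded protein response (Xbp1, Hspa5, Hsp90b1, Dnajc3, Pdia4, Pdia6 and Edem1, at -1.36 to -0.83); Atf6 was not called there (-0.62 ± 0.25, adjusted p = 0.0726).

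**Figure D4:**
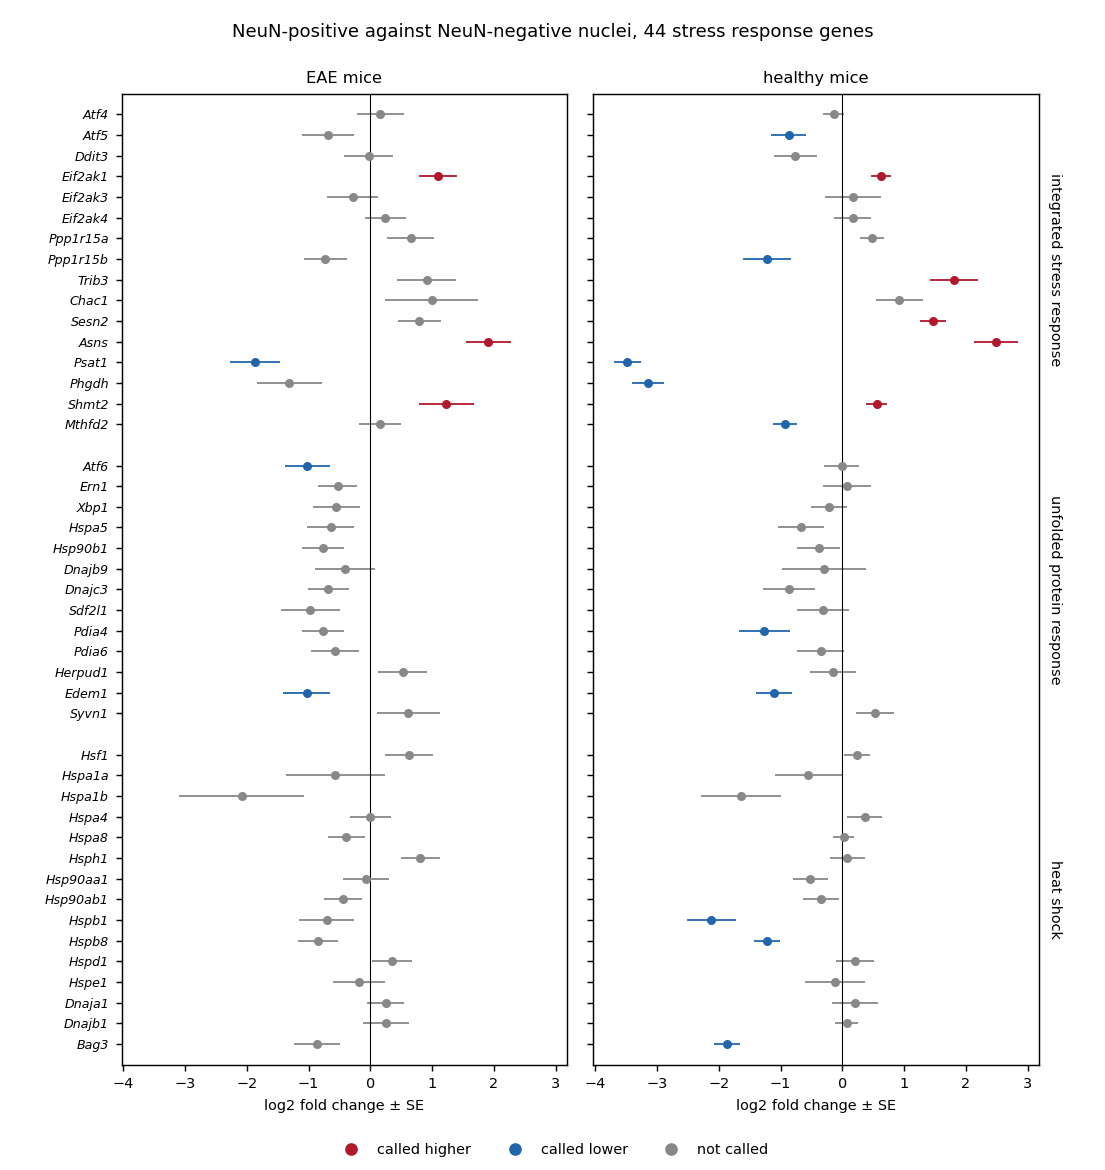
Log2 fold change of NeuN-positive against NeuN-negative nuclei for the 44 genes (points, with bars for 1 standard error), EAE mice at left and healthy mice at right on the same scale. Red points were called higher and blue points lower at an adjusted p under 0.05. Asns is far to the right and Psat1 far to the left in both panels. The fits shown held no term for library number.

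Further genes of the 3 programmes were read beside the members. Of 42 further integrated stress genes, 6 of the 40 tested in NeuN-positive nuclei were called higher in EAE and 2 lower, and 7 and 8 of 40 in NeuN-negative nuclei, beside 10.2% and 27.7% of all genes called. Those that rose in NeuN-positive nuclei were Cebpb, Atf3, Eif2ak2, Nupr1, Eif4ebp1 and Slc7a11. Cebpb, a partner of ATF4, was at 3.09 ± 0.35 (adjusted p = 9.74e-05) and Atf3, a target of ATF4, at 3.04 ± 0.45 (adjusted p = 0.000639) in NeuN-positive nuclei. In NeuN-negative nuclei they were at 4.53 ± 0.60 (adjusted p = 6.69e-05) and 3.35 ± 0.39 (adjusted p = 1.83e-05). Eif4ebp1, which restrains cap-dependent translation, was at 3.66 ± 0.67 (adjusted p = 0.00322) in NeuN-positive and 3.04 ± 0.42 (adjusted p = 0.000101) in NeuN-negative nuclei. The lower ones included Mars1 (-1.63 ± 0.30) and the glycine transporter gene Slc6a9 (-1.85 ± 0.55) in NeuN-positive nuclei, and Cbs, of transsulfuration (-2.85 ± 0.36), Slc6a9 (-2.67 ± 0.52) and Vldlr, a lipoprotein receptor (-1.76 ± 0.37), in NeuN-negative ones. Cebpb and Eif2ak2 are also active in immune cells, whose markers were higher in the same libraries as given above. The part of immune cells in the rise of both genes was not tested. Cebpb shares 20.74% of its exonic length with Tmem189 and Slc6a9 27.8% with Ccdc24, both on the opposite strand, so their counts are uncertain.

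Of 42 further unfolded protein response genes, all tested in both sorts, 1 was called higher in NeuN-positive nuclei, the translocon subunit Sec61b (2.27 ± 0.51, adjusted p = 0.0122), and 0 lower. In NeuN-negative nuclei 5 were higher, led by the ubiquitin-like modifier Ufm1 (1.80 ± 0.37), Sec61b (2.20 ± 0.47) and the ER-bound transcription factor Creb3l1 (1.61 ± 0.41), and 3 lower, which were Ubxn4 (-1.13 ± 0.30), Sil1 (-0.93 ± 0.29) and Os9 (-0.96 ± 0.34). These counts stand beside the same 10.2% and 27.7% of all genes. Of 41 further heat shock and co-chaperone genes (40 tested in NeuN-positive and 41 in NeuN-negative nuclei), Serpinh1, the collagen chaperone of the ER, was called higher in NeuN-positive nuclei (1.71 ± 0.39, adjusted p = 0.0137). The HSP90 co-chaperone Fkbp4 (-0.80 ± 0.19, adjusted p = 0.0163) and the ubiquitin ligase Stub1 (-1.67 ± 0.47, adjusted p = 0.0384) were lower. In NeuN-negative nuclei 1 was higher, the small heat shock gene Hspb7 (2.89 ± 0.82), and 7 lower, led by Dnajb2 (-2.07 ± 0.47), Hspa12a (-1.06 ± 0.31) and Stub1 (-1.80 ± 0.54). Stub1 shares 42.33% of its exonic length with Jmjd8 and Cryab 17.04% with Hspb2, on the opposite strand, so these too are uncertain. Cryab, a small heat shock gene of oligodendrocytes and astrocytes, was called in neither sort. It averaged 58.2 ± 38.8 CPM in EAE and 38 ± 14.2 CPM in healthy NeuN-positive libraries, and 125 ± 18.3 CPM in EAE and 231 ± 47.6 CPM in healthy NeuN-negative libraries (SD, n = 5 each), at log2 fold changes of 0.77 ± 0.44 (adjusted p = 0.263) and -0.53 ± 0.29 (adjusted p = 0.17).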

How the data were processed

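Nuclear RNA of 20 libraries, purified on RNeasy columns and sequenced from polyA-selected TruSeq libraries per the labels' protocols, was analysed from the table of raw counts per gene that the authors deposited. STAR 2.4, DESeq2, GRCm39 and mm10 are named in the submitters' processing notes without a role; how reads were counted, with which annotation and whether by strand, is not given in the sources used here. The NeuN sort is described in the series' design text. Genes with no symbol numbered 1167 and held 0.2515 to 0.4144% of counts. Groups were compared with edgeR 4.0.16 in R 4.3.3 (filterByExpr, TMM, robust quasi-likelihood test), with 10 libraries per comparison and 20 for the test between sorts, with Benjamini-Hochberg adjustment over all genes tested and calls at 0.05. The ± of a log2 fold change is its standard error. limma 3.58.1, DESeq2 1.42.0, other filters and left-out libraries were alternatives, and the fits were tested on simulated counts. Positions and lengths came from GENCODE M21 (GRCm38). Members and gene lists were chosen with earlier results of these data known. Genes printed per library are those called in an EAE comparison, and Atf4, Ddit3, Atf6, Ern1, Xbp1, Eif2ak3, Hsf1, Hspa5, Hspa1a and Hspa1b; of the further lists, Eif2ak2, Atf3, Cryab and up to 3 called genes each way by smallest p. No 2 libraries were identical, and the 40 replicate pairs differed by a chi-square of 11.1 to 392.8 per gene. Library numbers were taken to pair the sorts, since deviations from group means correlated at 0.118 to 0.389 in EAE and 0.282 to 0.703 in healthy mice. They did not pair EAE with healthy mice (-0.342 to 0.274). The main fits held no term for library number, so the pairing of the sorts entered the replicate block only.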

Additional observations from a re-analysis of the deposited data

Results flagged for a closer look

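In 10 of the 176 sets of 5 libraries (44 genes in 4 groups), 1 library stood apart from the other 4 by Dixon's criterion, which chance meets in about 1 in 20 groups. Healthy library 3 was low for Atf4 in NeuN-negative nuclei (90.1 CPM, others 171 to 192) and for Bag3 in NeuN-positive nuclei (7.13 CPM, others 11.8 to 13.6). Healthy library 5 was high in NeuN-negative nuclei for the ER co-chaperones Dnajb9 (36.8 CPM, others 3.51 to 8.34) and Dnajc3 (87.6 CPM, others 14.9 to 34.6). EAE library 3 was high for Hsf1 in NeuN-positive (119 CPM, others 31.0 to 56.4) and NeuN-negative nuclei (70.6 CPM, others 15.4 to 28.4), and for Xbp1 in NeuN-positive nuclei (60.7 CPM, others 32.7 to 36.1). EAE library 2 of the NeuN-positive sort was low for Shmt2 (36.2 CPM, others 78.8 to 91.1) and high for Hspe1 (24.9 CPM, others 7.73 to 11). EAE library 4 of that sort was low for Pdia4 (15.4 CPM, others 23.7 to 27.0).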

How the results depend on the processing

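No called value changed sign under the alternatives run. For EAE against healthy in NeuN-positive nuclei (5 higher and 3 lower), voom gave 8 and 11, the fit without libraries EAE 2, EAE 4 and healthy 3 gave 1 lower, and leaving out 1 library gave 4 to 6 higher and 1 to 3 lower. In NeuN-negative nuclei (4 and 5), voom gave 8 and 10, no filter 2 higher, the fit without these libraries 7 higher, the fit on all 20 libraries 10 lower, and single omissions 2 to 6 and 4 to 7. For the difference (0 and 0), the Wald test gave 2 higher, voom 5 and 1, the replicate block 5 higher, and single omissions 0 to 2 and 0 to 0. For the sorts in healthy mice (5 and 10), voom gave 9 higher, the replicate block 10 and 17, the fit on all 20 libraries 3 higher, and single omissions 4 to 6 and 9 to 12. For the sorts in EAE mice (3 and 3), voom gave 6 and 13, the Wald test 8 lower, no filter 1 lower, the replicate block 5 and 5, the fit without these libraries 6 and 16, the fit on all 20 libraries 5 and 5, and single omissions 2 to 5 and 1 to 6. The cause was not tested. EAE and healthy libraries share only numbers; with the replicate block 5 and 2 members were called in NeuN-positive and 3 and 5 in NeuN-negative nuclei. Low counts limit Trib3, Hspb1, Hspa1a and Hspa1b.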
